A study of Mus musculus with 162 samples.

Results

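The 8 genes described here were Il31ra, Osmr, Il6st, Nppb, Sst, Nts, Cysltr2 and Htr1f. They were taken by symbol, not by a measured value, and are 8 of the 46078 genes listed for each library. RNA-seq measured them in trigeminal ganglia, which hold the cell bodies of the sensory neurons of the face, and Il31ra and Osmr were also followed in the treated cheek skin. The comparison throughout was MC903 (calcipotriol, a vitamin D analog that causes a dermatitis-like state when painted on mouse skin) against its ethanol vehicle.

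All mice were adult C57BL/6 males, 8 to 12 weeks old by the study's methods, and those of the ganglion and skin libraries received 20 µL of 0.2 mM MC903 or of ethanol once daily on the shaved cheek. Whole ganglia from the treated side were collected from wild-type mice without injection on day 1 (6 hours after the first dose; 4 MC903 and 4 ethanol libraries), day 2 (3 and 2), day 5 (3 and 3) and day 8 (5 and 5). Wild-type mice that were also injected with PBS (4 and 3), or with 250 µg of aGr1, an antibody that depletes neutrophils (4 and 4), were taken on day 8. TSLPR.KO mice, which carry a deletion in Crlf2, the gene of the TSLP receptor, were taken on day 8 (2 and 2) and day 12 (4 and 4). Skin came from the same conditions and from BLT1.KO mice, which lack the leukotriene B4 receptor Ltb4r1, on day 8. The 56 ganglion libraries used held 15931871 to 62105901 counts on genes and the 60 skin libraries 17431296 to 67342879. Nothing in the labels says that libraries of a group came from separate animals, so p-values here measure only the spread between libraries.

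Some libraries stood apart from their labels. Of the 18 wild-type libraries of day 12, several labelled ganglion were at 3.57 to 107.5 summed cpm (counts per 1000000 counts on genes) of 10 sensory neuron markers, and several labelled skin were at 15660 to 17470, so that day was left out, as was the third MC903 skin library of day 2 (3336). In the ganglion libraries used the sum was 3675 to 22710, and no marker was at 0 in all of them. The lowest values were MC903 replicates 1 and 2 of day 1 (3675 and 6045, against 8418 to 10790 in ethanol). Crlf2 was at 0 to 0.228 cpm in the TSLPR.KO ganglion libraries of day 8, but at 0.908 to 2.06 cpm in those labelled TSLPR.KO day 12, which overlapped the 0.117 to 7.58 cpm of wild-type ganglia. In TSLPR.KO skin it was at 0.0691 to 0.277 cpm on day 8 and 0.405 to 1.34 cpm on day 12, below the 2.24 to 15.4 cpm of wild-type skin. The lowest wild-type ganglion value, 4 counts, came from 1 library labelled ethanol of uninjected day 8 (second of the 2 styles in which that day's labels are written, replicate 2), where the other 9 libraries of the day were at 3.19 to 6.97 cpm, so results of that day are given with and without it. Ltb4r1 was at 2.33 to 15.2 cpm in BLT1.KO skin, which overlapped the 2.52 to 77.6 cpm of wild-type skin. Where in Crlf2 and Ltb4r1 those counts fell was not analysed here. The neutrophil markers S100a8, S100a9, Cxcr2 and Ly6g were not absent from the aGr1 libraries. Their sum was 13.63 to 106.7 cpm in MC903 ganglia with aGr1 and 5.797 to 12.95 cpm with PBS. In MC903 skin it was 169.8 to 181.9 cpm with aGr1 (5.045 to 18.89 in ethanol) and 281.5 to 377.2 cpm with PBS (12.83 to 21.18 in ethanol). S100a8 and S100a9 are also made by inflamed keratinocytes, and Ly6g, the most specific of the 4, was at 0 to 0.316 cpm in the ganglion and skin libraries of injected mice. In MC903 skin Ly6g was at 0 to 0.0457 cpm with aGr1 and 0.0517 to 0.202 cpm with PBS. In MC903 ganglia it was at 0.0406 to 0.316 cpm with aGr1 and at 0 with PBS. By flow cytometry the study reported fewer neutrophils in blood and treated skin after aGr1.

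As background, a class of small-diameter sensory neurons that carries itch makes the natriuretic peptide Nppb, its messenger to the spinal cord, together with the peptides Sst and Nts. The same neurons carry receptors for mediators of inflamed skin: the heterodimer of Il31ra and Osmr that binds the T-cell cytokine IL-31, the cysteinyl leukotriene receptor Cysltr2 and the serotonin receptor Htr1f. Osmr also pairs with Il6st (gp130), the shared signalling chain of the interleukin-6 family, to bind oncostatin M, and both kinds of receptor signal through JAK kinases and STAT factors to the feedback inhibitor Socs3. Il6st and Osmr are not markers of these neurons alone: Il6st was at a mean of 152 to 374 cpm over the skin groups, and Osmr at 25.4 to 166 cpm. Sst and Htr1f were at or near 0 in skin, and Htr1f was too low there to be tested in any comparison.

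The 250 bases before the RefSeq start of the 4 genes that passed the test in ganglia are shown on the gene's strand (GRCm38.p6, 5′ to 3′), because these genes rose and their starts are where control sequences would be looked for. Capitals mark a motif match. Of 32851 promoters of this length, 7.02% held the STAT motif TTCNNNGAA and 12.4% the TATA box TATAAA, searched on both strands. Il31ra (chr13:112580663-112580912, minus strand) held a STAT match, TTCCAGGAA, 191 to 183 bases before the start. Nppb (chr4:147985650-147985899, plus strand) held a TATA box 31 to 26 bases before it. Osmr (chr15:6874314-6874563, minus strand) and Cysltr2 (chr14:73049115-73049364, minus strand) held neither. Of the genes that did not pass, Sst held the cyclic AMP response element TGACGTCA (1.55% of promoters) and Nts the AP-1 motif TGANTCA (6.75% of promoters), both within the same window. A match is a description of letters, not a binding site. These starts are those of RefSeq and may not be the ones used in ganglion neurons.
Il31ra: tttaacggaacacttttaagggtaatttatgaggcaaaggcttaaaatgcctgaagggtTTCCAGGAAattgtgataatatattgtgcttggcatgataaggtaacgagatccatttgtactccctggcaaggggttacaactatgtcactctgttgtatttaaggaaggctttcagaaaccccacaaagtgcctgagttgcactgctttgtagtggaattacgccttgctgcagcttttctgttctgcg
Osmr: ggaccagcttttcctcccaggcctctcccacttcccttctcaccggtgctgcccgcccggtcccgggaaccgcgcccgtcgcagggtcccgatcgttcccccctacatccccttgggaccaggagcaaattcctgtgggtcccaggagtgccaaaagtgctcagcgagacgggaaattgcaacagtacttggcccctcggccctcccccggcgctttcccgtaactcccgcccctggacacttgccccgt
Nppb: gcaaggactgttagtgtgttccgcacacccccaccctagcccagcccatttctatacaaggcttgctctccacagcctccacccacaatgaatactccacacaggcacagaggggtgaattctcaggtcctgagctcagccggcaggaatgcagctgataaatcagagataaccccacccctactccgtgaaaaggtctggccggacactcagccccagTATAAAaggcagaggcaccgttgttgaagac
Cysltr2: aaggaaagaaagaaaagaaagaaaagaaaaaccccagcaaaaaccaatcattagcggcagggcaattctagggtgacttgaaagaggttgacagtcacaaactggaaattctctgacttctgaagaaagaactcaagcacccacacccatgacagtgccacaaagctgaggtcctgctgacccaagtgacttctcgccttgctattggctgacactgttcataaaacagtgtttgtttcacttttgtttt

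In ethanol-treated ganglia (27 libraries) the genes differed widely in level per kilobase of exon. Il6st was highest at 43.5 ± 4.81 cpm per kilobase (SD, n = 27), above the range of every other gene. Nts (8.10 ± 4.62), Sst (6.15 ± 5.76), Il31ra (4.28 ± 1.15), Nppb (3.84 ± 2.12), Htr1f (2.61 ± 0.63), Osmr (2.33 ± 0.407) and Cysltr2 (1.44 ± 0.447) followed, and each neighbouring pair among these 7 overlapped. In plain cpm, not per length, Nppb in ethanol ganglia was between 0.322 (11 counts) and 7.33 cpm. A level in whole ganglion is a share of all RNA, so fewer cells of a type and less RNA per cell cannot be told apart.

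In ganglia the IL-31 receptor pair, the peptide Nppb and the receptor Cysltr2 passed as higher with MC903 on day 8 or later only. On day 5, without a call, the log2 fold changes of Il31ra, Osmr, Nppb and Cysltr2 were 1.19, 0.64, 1.47 and 1.44. On uninjected day 8 they were 1.30, 0.78, 1.79 and 0.92. No test compared the days, so the calls do not date the rise. At an adjusted p under 0.1 (edgeR's quasi-likelihood test, Benjamini-Hochberg over all genes tested), Il31ra and Osmr rose in 4 of 8 ganglion conditions, and Nppb and Cysltr2 in 2. On day 8 without injection 2 of 8 genes rose, against 0.125% of the 25600 genes tested, and 3 of 8 without the ethanol library low in Crlf2. With PBS 4 of 8 rose (1.91% of all genes), with aGr1 4 of 8 (0.875%), and in TSLPR.KO on day 12 it was 2 of 8 (0.289%). Il6st, Sst, Nts and Htr1f did not pass in any ganglion condition, and none of the 8 fell in these fits. The study itself named Il31ra, Osmr, Nppb and Cysltr2 from these libraries, so their calls are not independent evidence of a direction.

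**Figure D1:**
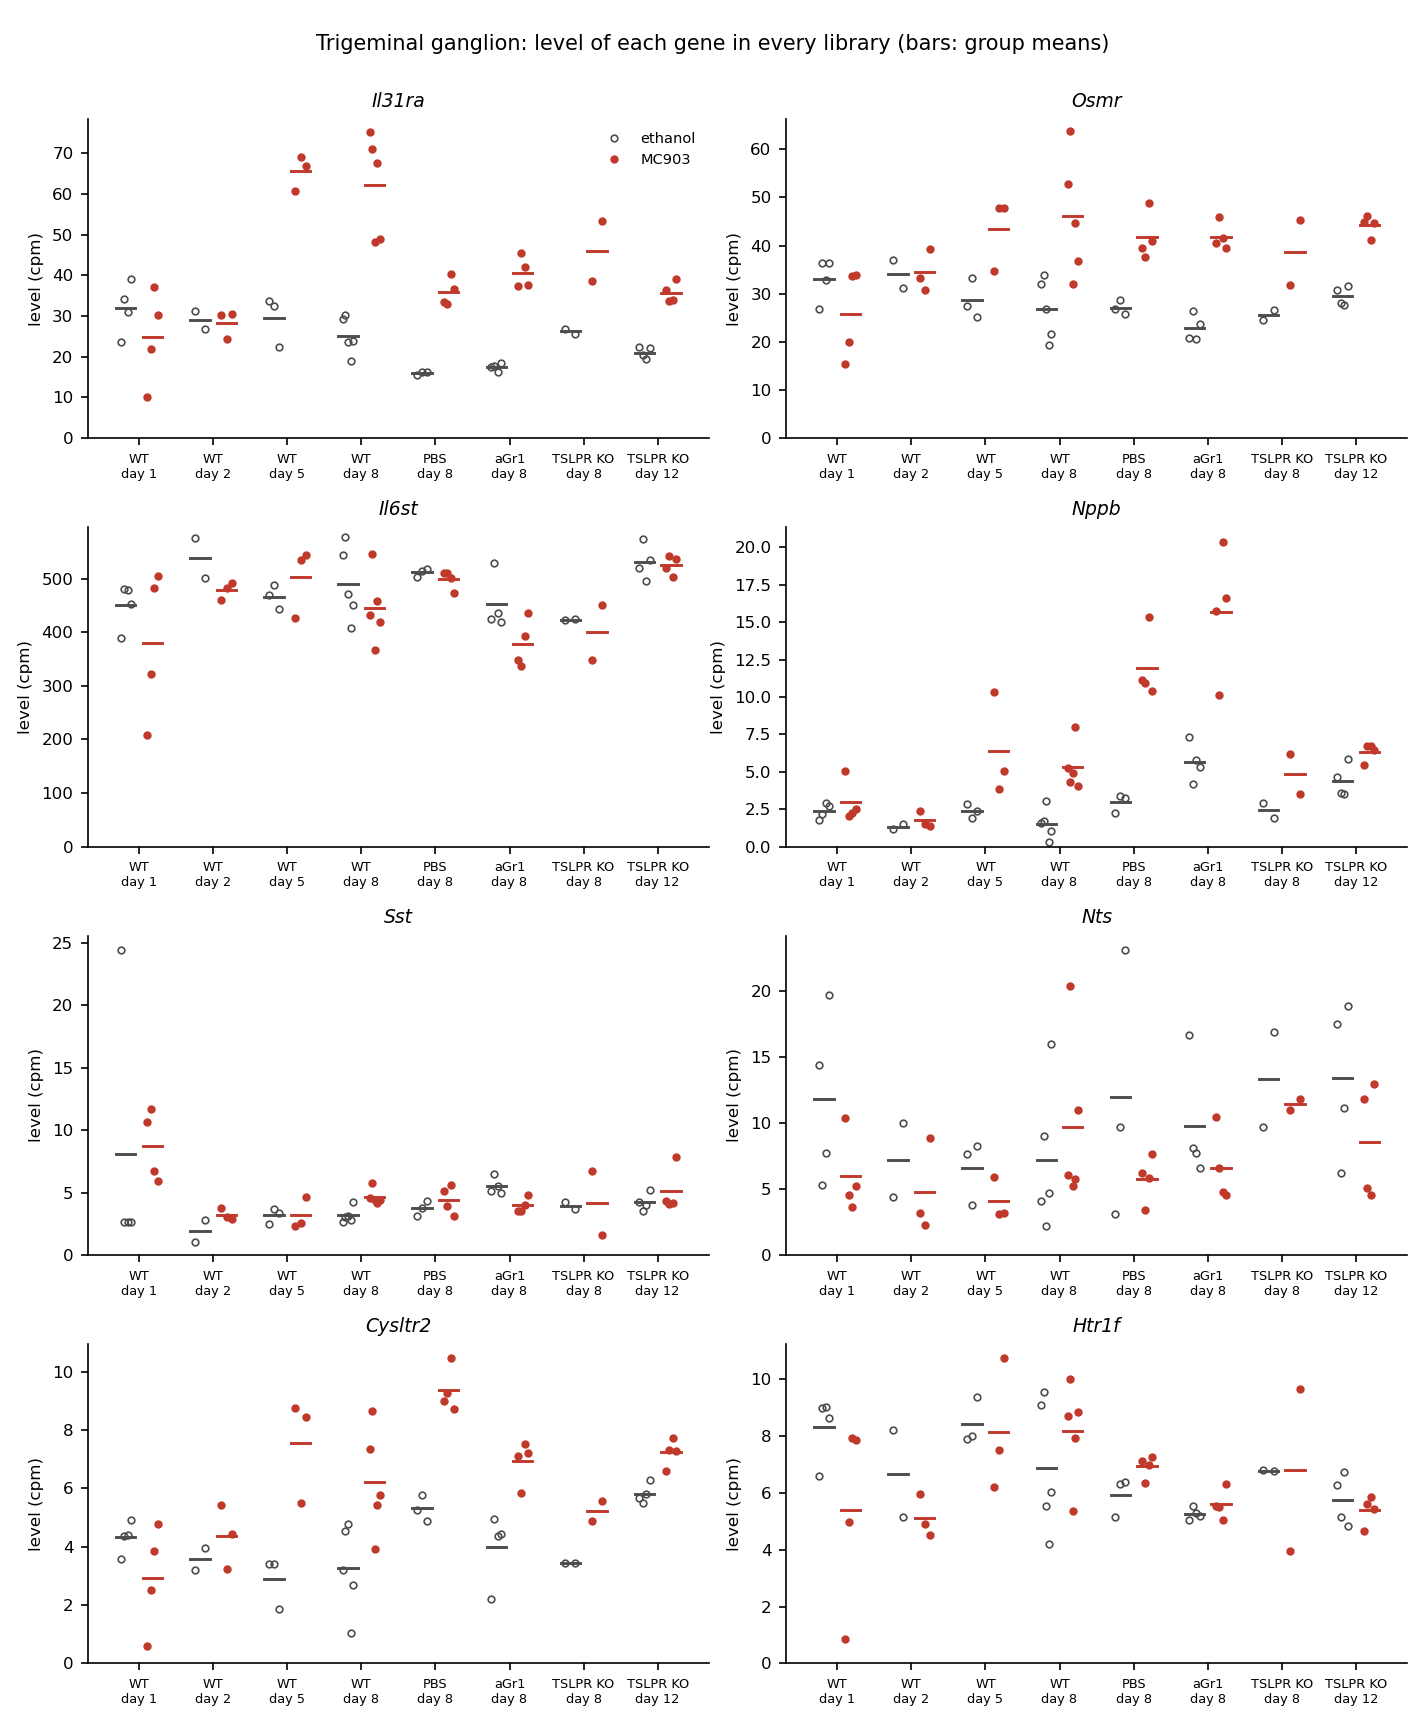
Level of each of the 8 genes in every trigeminal ganglion library (y axis, cpm; open points ethanol, filled points MC903, bars the group means) by condition (x axis). The groups of Il31ra separate in every condition from day 5 on, Nppb is highest with PBS and aGr1, and Il6st stays between 208 and 577 cpm with overlapping groups in 7 of 8 conditions.

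The early days showed no call. On days 1 and 2, 0 of 8 genes passed (0% of 25319 and 24092 genes), while 2034 (8.03%) and 1527 (6.34%) genes had an unadjusted p under 0.05 and DESeq2 called 78 and 65 genes, none of them among the 8. Of the 8, Nts alone had an unadjusted p under 0.05 on day 1 and none had on day 2. Without ethanol replicate 2 of day 2, which leaves a lone ethanol library assumed to vary like the MC903 libraries, Il6st (-0.32), Sst (1.57) and Htr1f (-0.74) passed, among 4899 genes. On day 5, 0 of 8 genes passed, as did 0.00823% of 24300 genes (2 genes), with 938 genes (3.86%) at an unadjusted p under 0.05, among them 4 of the 8. Of the 8, the 4 genes Il31ra, Osmr, Nppb and Cysltr2 then had groups that did not overlap and were higher with MC903, as in 3.24% of all genes. In TSLPR.KO on day 8, with 2 libraries a group, 0 of 8 passed (0% of 23402 genes; 1886 genes or 8.06% at an unadjusted p under 0.05, DESeq2 185), and the same 4 genes did not overlap and were higher, as in 17.4% of all genes.

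Il31ra, the subunit that makes the heterodimer specific for IL-31, rose in 4 conditions. On day 8 without injection it was at 75.2, 71.1, 48.2, 67.6 and 48.9 cpm with MC903 and at 29.3, 30.1, 23.6, 19.1 and 23.8 cpm with ethanol. The lowest MC903 library was above the highest ethanol library, as in 0.582% of all genes. The log2 fold change was 1.30 ± 0.10 (SE; adjusted p = 8.98e-05, edgeR), the smallest p of the 25600 genes. Without the ethanol library low in Crlf2, at 19.1 cpm of Il31ra, it was 1.25 (0.000139). Within each of the label styles it was also 1.30, with adjusted p = 0.00542 in the first (2 and 2 libraries) and 0.101 in the second (3 and 3).

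With PBS, Il31ra was at 33.5, 32.9, 40.2 and 36.6 cpm against 15.5, 16.3 and 16.3 cpm. With aGr1 it was at 37.4, 45.5, 42.1 and 37.6 cpm against 17.6, 17.7, 16.1 and 18.5 cpm. Groups did not overlap in either condition (higher in 7.71% and 3.43% of all genes), and Il31ra rose by 1.15 ± 0.08 and 1.23 ± 0.10 log2 units (adjusted p = 4.73e-05 and 7.01e-05, edgeR). Il31ra lay lower in both injected sets than in uninjected mice of the same day. In ethanol mice the mean was 16.04 ± 0.463 cpm (n = 3) with PBS and 17.5 ± 0.969 (n = 4) with aGr1, against 25.2 ± 4.58 (n = 5) without injection, while summed neuron markers were 16990 to 22710 cpm in the injected and 8834 to 12420 in the uninjected ethanol libraries. The part of neuron content in that difference was not tested.

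On day 5 Il31ra was at 60.8, 69.1 and 66.8 cpm with MC903 and 33.6, 32.5 and 22.3 cpm with ethanol. The groups were well apart, by 1.19 ± 0.19 log2 units, yet it did not pass over all genes (adjusted p = 0.265, edgeR). Libraries of the same replicate number deviated together on this day (r = 0.363, 0.287 and 0.157), but no label states a pairing. With this pairing in the fit Il31ra passed at 1.22 (adjusted p = 0.0193, edgeR). The pairing was read from these same counts, so that call is not independent support. Without pairing Il31ra also passed once ethanol replicate 1 was left out (0.0892), the only single library whose removal gave a call. Over all single removals its log2 fold change was 1.03 to 1.33. Over the other alternatives, among them a fit without ethanol replicates 2 and 3, it was 0.95 to 1.22. Ethanol replicates 2 and 3 held 11430 and 6029 cpm of pituitary markers against 41.8 in replicate 1.

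On days 1 and 2 Il31ra gave overlapping groups. On day 1 it was at 10.1, 22, 37.1 and 30.3 cpm with MC903 and at 23.7, 34.1, 30.9 and 39.1 cpm with ethanol, a log2 fold change of -0.41 with an interval of 2 SE from -1.14 to 0.32. The low values were the libraries with the fewest neuron markers, and without them the log2 fold change was 0.06. On day 2 it was at 30.2, 24.4 and 30.6 cpm against 31.4 and 26.8 cpm, and the interval was -0.41 to 0.32. All values of these days thus lay below the 48.2 to 75.2 cpm of the uninjected wild-type MC903 libraries on days 5 and 8, but not below all MC903 libraries of the injected or TSLPR.KO mice.

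In TSLPR.KO ganglia Il31ra was at 38.7 and 53.3 cpm against 26.9 and 25.7 cpm on day 8, and at 36.4, 33.6, 34.1 and 39.1 cpm against 22.3, 20.4, 19.4 and 22.1 cpm in those labelled day 12. Each MC903 library was above each ethanol library on both days. The rise of 0.79 ± 0.08 log2 units on day 12 passed (adjusted p = 0.00161, edgeR), with groups not overlapping upward in 2.29% of all genes, and 0.87 ± 0.19 on day 8 did not (0.601). DESeq2 gave 0.041 for the latter. MC903 replicate 1 of day 8 also held 102 cpm of muscle and 134 cpm of keratinocyte markers, against at most 9.95 and 4.43 in ethanol, and its part was not tested.

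Osmr, the partner of Il31ra and of Il6st, rose in the same 4 conditions with lower fold changes. On day 8 without injection it was at 52.9, 63.9, 32.1, 44.8 and 36.9 cpm with MC903 and 32.1, 33.98, 26.8, 19.3 and 21.6 cpm with ethanol. The lowest MC903 library lay below the highest ethanol library. Osmr passed at a log2 fold change of 0.78 ± 0.11 (adjusted p = 0.0245, edgeR), but leaving out any one of 3 libraries ended the call (adjusted p of 0.102 without MC903 replicate 2, 0.125 and 0.132 without ethanol replicate 1 or 2, all of the first label style). Without the ethanol library low in Crlf2 it passed at 0.73 (0.0127). Within the label styles the log2 fold change was 0.82 (adjusted p = 0.0894) and 0.74 (0.884).

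With PBS, Osmr was at 39.5, 37.5, 48.8 and 41.03 cpm against 26.8, 28.6 and 25.8 cpm. With aGr1 the values were 40.6, 45.96, 41.5 and 39.4 cpm against 20.7, 26.5, 20.5 and 23.8 cpm. Both conditions showed separate groups, and Osmr rose by 0.62 ± 0.09 and 0.89 ± 0.10 log2 units (adjusted p = 0.00298 and 0.000806, edgeR). In TSLPR.KO ganglia labelled day 12 it rose by 0.61 ± 0.07 (0.00596), from 30.8, 28.2, 27.6 and 31.7 cpm to 44.9, 46.1, 41.2 and 44.6 cpm. On day 8 of TSLPR.KO, 31.9 and 45.3 cpm stood against 24.5 and 26.5 cpm, and on day 5 of wild-type mice 34.8, 47.8 and 47.8 cpm against 27.4, 33.3 and 25.2 cpm. Osmr passed in neither (0.66 ± 0.20, adjusted p = 0.601, and 0.64 ± 0.18, adjusted p = 1). The groups of days 1 and 2 overlapped, with log2 fold changes of -0.41 and 0.00.

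The ratio of Il31ra to Osmr in the same library, both in cpm, was higher with MC903 wherever both genes passed. It was 1.38 ± 0.164 against 0.954 ± 0.0944 on day 8 (n = 5 and 5), 0.861 ± 0.0297 against 0.594 ± 0.0328 with PBS (n = 4 and 3), 0.970 ± 0.0400 against 0.770 ± 0.0747 with aGr1 (n = 4 and 4) and 0.811 ± 0.0615 against 0.712 ± 0.0155 in TSLPR.KO day 12 (n = 4 and 4). No library of one treatment fell within the range of the other in these conditions. On day 5 it was 1.53 ± 0.189 against 1.03 ± 0.177 (n = 3 and 3), and on days 1 and 2 the groups overlapped. These ratios were not tested, and the exon lengths of the genes differ, so a ratio of 1 does not mean equal numbers of transcripts.

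**Figure D2:**
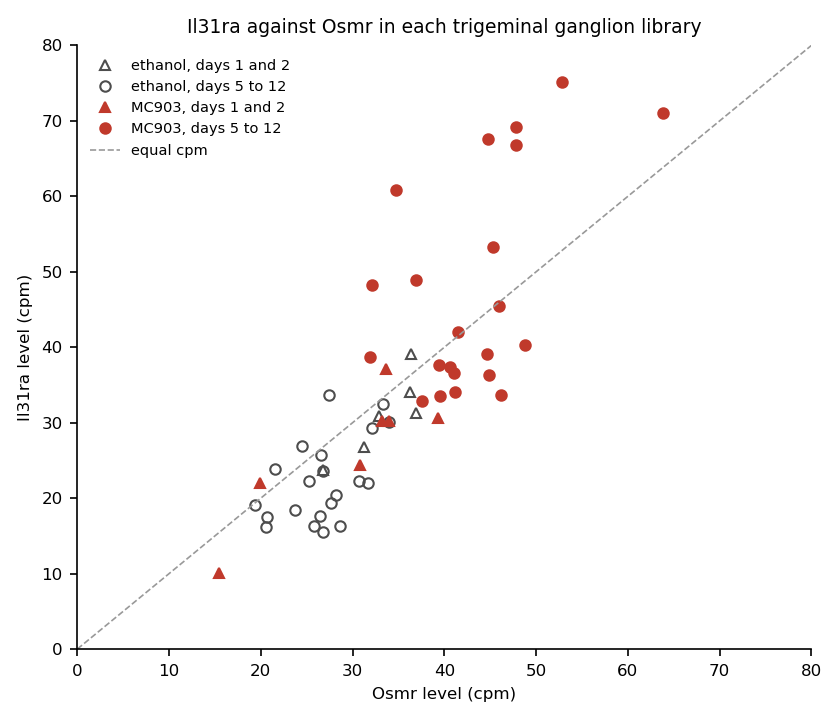
Il31ra (y axis, cpm) against Osmr (x axis, cpm) in each of the 56 ganglion libraries, with ethanol open, MC903 filled, days 1 and 2 as triangles and later days as circles. The dashed line marks equal cpm, and MC903 libraries of days 5 to 12 reach 75.2 cpm of Il31ra, whereas ethanol libraries end at 39.1.

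Il6st, the shared chain of the interleukin-6 family, did not pass in any condition. Its smallest unadjusted p (0.0422) was with aGr1, where MC903 libraries were at 348, 336, 393 and 436 cpm and ethanol libraries at 424, 529, 436 and 420 cpm. Those groups overlapped, and the log2 fold change was -0.24 with an interval of -0.45 to -0.03 (adjusted p = 0.368, edgeR). The narrowest bounds came with PBS, where 510, 510, 501 and 474 cpm stood against 504, 514 and 519 cpm, a log2 fold change of -0.04 (interval -0.13 to 0.04). On day 2 every MC903 library was below both ethanol libraries, as in 12.2% of all genes. Over the 8 conditions the value ran from -0.29 to 0.14.

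Nppb, the itch peptide, showed the largest folds of the 8 genes with PBS and with aGr1, at a low level. With PBS it was at 11.1, 10.9, 15.4 and 10.4 cpm (214 to 268 counts) against 2.26, 3.39 and 3.26 cpm (36 to 73 counts). The groups lay far apart, and Nppb rose by 1.97 ± 0.18 log2 units, a fold of 3.93 (adjusted p = 0.000108, edgeR). With aGr1 it was at 15.8, 10.1, 20.3 and 16.6 cpm against 7.33, 4.17, 5.76 and 5.35 cpm. It rose there by 1.49 ± 0.21 (adjusted p = 0.0029), from a higher ethanol level, and no library of the groups overlapped.

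On day 8 without injection Nppb was at 5.23, 4.33, 4.95, 7.996 and 4.08 cpm against 1.56, 1.71, 3.06, 0.322 and 1.03 cpm. Every MC903 library was above every ethanol library, but it did not pass at 1.79 ± 0.42 log2 units (adjusted p = 0.231, edgeR). It passed without ethanol replicate 1 of the second label style, at 2.31 (adjusted p = 0.0637), or without replicate 2, the library low in Crlf2 and lowest in Nppb at 0.322 cpm, at 1.51 (0.0624), and DESeq2 gave 0.00367. Within the label styles the log2 fold change was 1.54 (adjusted p = 0.0537) and 1.96 (0.884). On day 5 it was at 10.3, 3.84 and 5.07 cpm against 2.83, 1.91 and 2.38 cpm, separate groups that did not pass (1.47 ± 0.40, adjusted p = 1, and 0.168 with the pairing).

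Nppb on days 1 and 2 was at 1.401 to 5.07 cpm with MC903 and 1.17 to 2.89 cpm with ethanol, with overlapping groups and log2 fold changes of 0.23 and 0.39. In TSLPR.KO ganglia it was at 6.16 and 3.48 cpm against 2.93 and 1.92 cpm on day 8, and at 5.43, 6.76, 6.71 and 6.43 cpm against 4.66, 3.58, 3.54 and 5.87 cpm in those labelled day 12. The day 12 groups overlapped. Neither passed, at 1.07 ± 0.48 (adjusted p = 0.614, edgeR) and 0.55 ± 0.16 (0.425).

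Sst, a peptide made by the same neurons and by other neurons and endocrine cells, did not pass. On day 8 it was at 4.53, 5.78, 4.40, 4.16 and 4.39 cpm with MC903 and 2.67, 3.05, 3.14, 2.79 and 4.22 cpm with ethanol. Those groups overlapped by 1 ethanol library, and the log2 fold change was 0.55 ± 0.20 (adjusted p = 0.673, edgeR). With aGr1 the order was the other way, at 3.53, 3.50, 3.999 and 4.83 cpm against 5.09, 6.45, 5.55 and 4.93 cpm. All 4 MC903 libraries were lower, as in 4.62% of all genes, a log2 fold change of -0.45 ± 0.16 that did not pass (adjusted p = 0.247). On day 2 the MC903 libraries (3.74, 3.01 and 2.87 cpm) were above the ethanol libraries (1.04 and 2.83 cpm), as in 10.6% of all genes, without a call. On day 1 ethanol replicate 1 was at 24.4 cpm and the other ethanol libraries at 2.63 to 2.66, and that library held 4331 cpm of pituitary markers.

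Nts, a peptide that also acts in the spinal cord and gut, varied widely between libraries. With PBS it was at 6.22, 3.45, 5.86 and 7.66 cpm against 3.14, 9.70 and 23.2 cpm. The ethanol libraries alone spanned the whole MC903 range, and the log2 fold change was -1.08 ± 0.43 (adjusted p = 0.263, edgeR). It rested on single libraries: it was -0.20 (0.879) without ethanol replicate 3, and it passed at -1.51 (0.0562) without ethanol replicate 1 and at -1.26 (0.0684) without MC903 replicate 4. In the TSLPR.KO libraries of day 12 Nts did not pass, at -0.63 ± 0.38 (adjusted p = 0.783, edgeR). With the replicate numbers taken as pairs, a pairing read from these same counts, it was -0.65 ± 0.15 (0.0932). Those libraries were at 11.8, 5.05, 4.52 and 12.96 cpm against 17.5, 6.18, 11.2 and 18.9 cpm, so each MC903 library was below the ethanol library of its number.

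Cysltr2, a receptor for cysteinyl leukotrienes, rose in the injected mice. With PBS it was at 8.98, 9.27, 10.4 and 8.73 cpm against 5.27, 5.76 and 4.89 cpm, separate groups, and rose by 0.81 ± 0.11 log2 units (adjusted p = 0.00258, edgeR). With aGr1 the values were 7.12, 5.82, 7.53 and 7.22 cpm against 2.19, 4.94, 4.38 and 4.43 cpm, and the change was again 0.81, with an SE of 0.21. That call stood near the threshold (adjusted p = 0.0967) and was lost without any one of 7 of the 8 libraries, all but ethanol replicate 2, with adjusted p of 0.131 to 0.235.

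Cysltr2 did not pass elsewhere. On day 5 it was at 8.74, 5.51 and 8.44 cpm against 3.42, 3.39 and 1.85 cpm, groups apart by 1.44 ± 0.33 log2 units (adjusted p = 1, edgeR, and 0.177 with the pairing). DESeq2 gave 0.0399 for day 5. On day 8 without injection 7.35, 8.66, 3.92, 5.44 and 5.76 cpm overlapped 3.22, 4.52, 4.78, 1.05 and 2.67 cpm (0.92 ± 0.30, adjusted p = 0.6), and without the ethanol library low in Crlf2, at 1.05 cpm, the value was 0.72 (0.428). In TSLPR.KO ganglia labelled day 12 all 4 MC903 libraries (6.59 to 7.72 cpm) were above all 4 ethanol libraries (5.49 to 6.30 cpm), by 0.34 ± 0.11 (adjusted p = 0.464).

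Htr1f, an inhibitory serotonin receptor, gave overlapping groups in all 8 conditions. With PBS it was at 7.13, 6.36, 7.003 and 7.28 cpm against 5.15, 6.32 and 6.38 cpm, a log2 fold change of 0.21 with an interval of -0.03 to 0.45. With aGr1 5.54, 5.49, 5.06 and 6.33 cpm stood against 5.05, 5.53, 5.30 and 5.18 cpm (interval -0.16 to 0.38). On day 8 without injection the interval was -0.06 to 0.65.

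**Figure D3:**
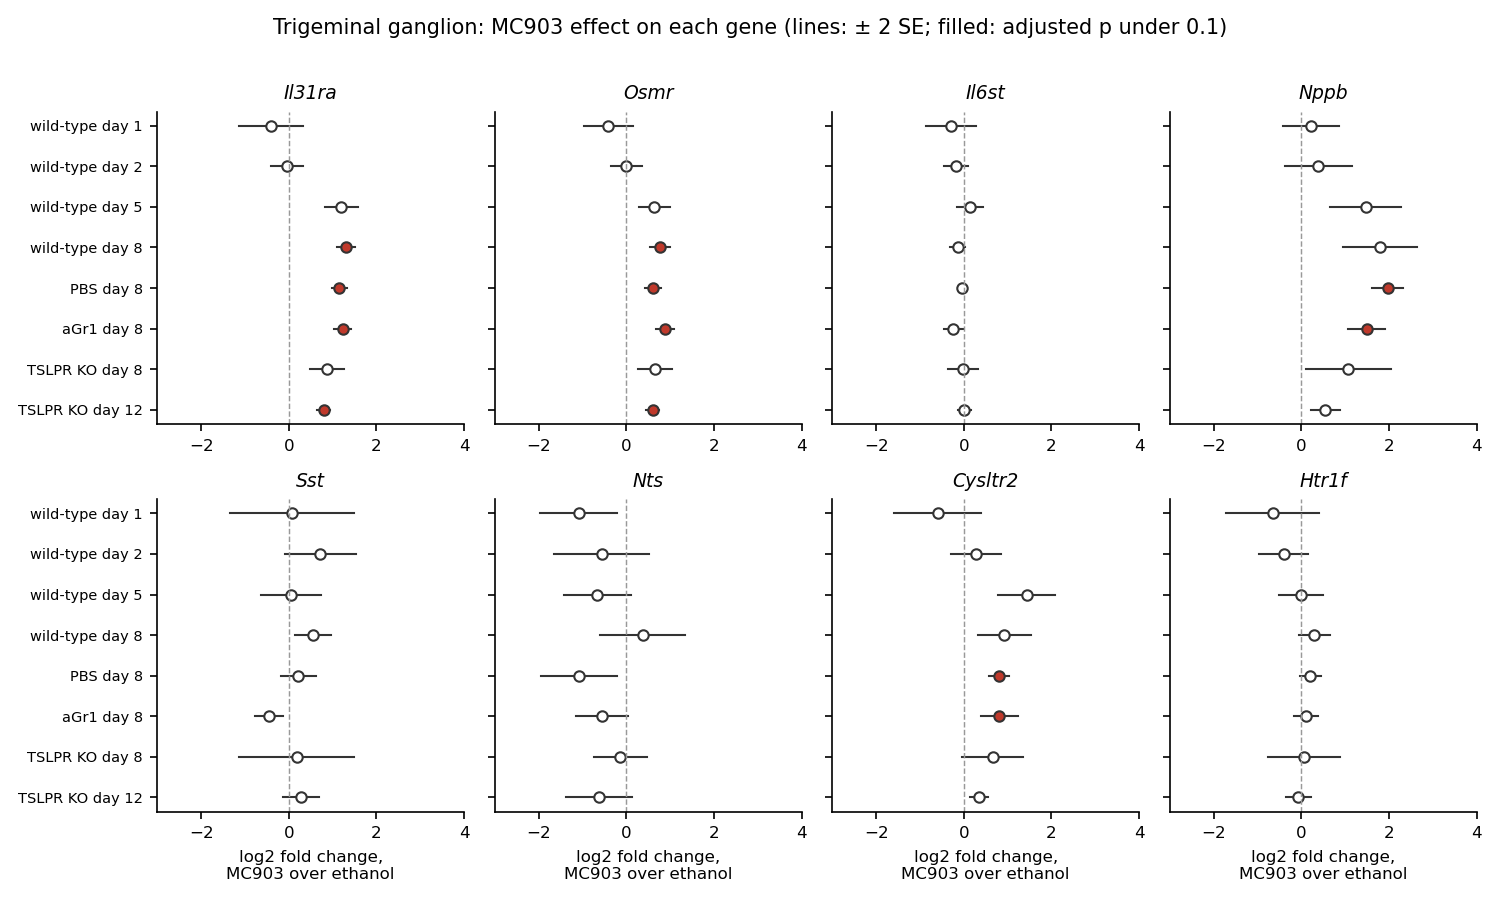
Log2 fold change of MC903 over ethanol (x axis) for each of the 8 genes in the 8 ganglion conditions (y axis); lines are 2 SE to each side and filled points have an adjusted p under 0.1 (edgeR). Filled points appear for Il31ra and Osmr in 4 conditions and for Nppb and Cysltr2 in 2, from 0.61 to 1.97.

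Whether the MC903 effect differed between conditions was tested directly as an interaction. Between aGr1 and PBS none of the 8 genes passed (9 of 25760 genes did, 0.0349%, with 8.93% at an unadjusted p under 0.05). The difference for Il31ra was 0.09 ± 0.13 log2 units (interval -0.17 to 0.35) and for Nppb -0.48 ± 0.31 (-1.09 to 0.14). Sst had an unadjusted p of 0.021 (-0.66 ± 0.26, adjusted p = 0.484, edgeR). Between aGr1 and uninjected mice, a comparison that shares the aGr1 libraries with the last, none of the 27015 genes passed (0%; 1710 or 6.33% at an unadjusted p under 0.05, DESeq2 5), and Sst again had the smallest p of the 8 (-0.9985 ± 0.26, adjusted p = 0.782, and -0.96 with 0.767 without the ethanol library low in Crlf2).

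Between TSLPR.KO and wild-type mice on day 8 none of the 26576 genes passed either (0%; 2234 or 8.41% at an unadjusted p under 0.05, DESeq2 169). The Il31ra effect differed by -0.44 ± 0.20 log2 units, smaller in TSLPR.KO, with an interval of -0.84 to -0.04 (unadjusted p = 0.0433, adjusted p = 0.583, edgeR), and by -0.38 (0.488) without the wild-type ethanol library low in Crlf2. For Nppb the interval was wide, -2.24 to 0.78. This test shares its wild-type libraries with the uninjected comparison above.

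Set against the summed sensory neuron markers of the same library, Il31ra and Nppb were again higher with MC903. The mean ratio of Il31ra to that sum was 2.36-fold higher with MC903 on day 8, 2.25-fold with PBS, 2.33-fold with aGr1 and 1.73-fold in TSLPR.KO day 12, with no overlap. For Nppb the folds were 3.38, 4.06 and 2.82 without overlap and 1.47 with overlap in TSLPR.KO day 12. For Cysltr2 the aGr1 groups overlapped on this scale (1.74-fold). On day 1 the Il31ra ratio was 1.02-fold, with overlapping groups. These folds are descriptions with no test.

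The remaining genes of the pathway, 23 ligands, receptors, kinases, STAT factors and inhibitors of the interleukin-6 family, mostly did not pass in ganglia. Of 21 or 22 tested, 1 rose on day 8 (0.125% of all genes), 3 with PBS (1.91%), 1 with aGr1 (0.875%) and 1 in TSLPR.KO day 12 (0.289%), and none fell. Socs3, the feedback inhibitor that STAT3 induces, rose from 7.13 ± 1.45 to 14.3 ± 1.88 cpm on day 8 (n = 5 and 5; 1.004 ± 0.16 log2 units, adjusted p = 0.0321, edgeR). It also rose with PBS (1.44 ± 0.12) and in TSLPR.KO day 12 (0.91 ± 0.11). Stat3 rose with PBS by 0.29 ± 0.06, from 309 ± 4.63 to 379 ± 29.6 cpm (n = 3 and 4). Il6ra, the interleukin-6 receptor, rose with aGr1 (0.71 ± 0.17). Il31 itself was at 0 or near it in every ganglion group, with a highest mean of 0.0287 cpm.

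Other genes of sensory neurons also passed. Of 5 further genes of this class, the irritant channel Trpa1 rose with PBS (0.47 ± 0.06, from 58.5 ± 2.49 to 81.3 ± 3.69 cpm) and aGr1 (0.34 ± 0.08), and the heat channel Trpv1 rose with PBS (0.40 ± 0.06) and in TSLPR.KO day 12 (0.49 ± 0.08). Of 12 markers of other sensory neuron subsets, the peptide gene Calca rose in the same 4 conditions as Il31ra, by 0.48 to 0.74 log2 units, Tac1 rose with PBS and in TSLPR.KO day 12, and Lpar3 fell with PBS (-0.50 ± 0.06). Over all genes tested, 0.125% rose on day 8, 1.91% with PBS, 0.875% with aGr1 and 0.289% in TSLPR.KO day 12. The median log2 fold change over the 8 genes was 0.66 on day 8, 0.42 with PBS, 0.46 with aGr1 and 0.31 in TSLPR.KO day 12, against 0.00 to 0.01 over all genes tested.

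Within groups, over the 56 ganglion libraries after each was centred on its group, the log2 levels of Il31ra and Osmr had r = 0.857, and r = 0.746 (n = 54) without the MC903 replicates of day 1 that were low in neuron markers, the highest of 16946 genes in that case. The points share library depth and neuron content. With all libraries the other genes most like Il31ra were Plxnc1 (0.866), Abca6 (0.865), Mrgprd (0.862) and Rab6b (0.855), and these were at 0.517 to 0.599 without those libraries. For Nppb the 5 highest were Apoh (0.727), Krt28 (0.688), Polr2g (0.686), Mterf4 (0.671) and Lgals3 (0.658), and its r with Il31ra was -0.06, or 0.236 (n = 54) without the MC903 replicates of day 1 named above. For Sst they were Pnmal2 (0.797), Podxl2 (0.767), Pnma3 (0.762), Hap1 (0.757) and 6330403K07Rik (0.745), which were at 0.259 to 0.534 (n = 55) without ethanol replicate 1 of day 1.

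In cheek skin Osmr and Il31ra did not move together. Osmr, which keratinocytes and fibroblasts also make, was at 88.8, 146, 95.1, 97.2 and 142 cpm with MC903 on day 8 and 39.8, 48.5, 34.2, 44.4, 39.4 and 51.1 cpm with ethanol. The lowest MC903 library was above the highest ethanol library, as in 6.95% of all genes, and Osmr rose by 1.44 ± 0.15 log2 units (adjusted p = 1.96e-05, edgeR, threshold 0.05 in skin, where 12.2% of 26175 genes rose). It was 1.41 and 1.44 within the label styles. Il31ra on the same day was at 5.98, 18.2, 17.7, 8.28 and 9.08 cpm against 9.39, 21.6, 8.33, 12.8, 13.01 and 21.01 cpm, overlapping groups with an interval of -0.92 to 0.34.

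Osmr also rose in skin with PBS, from 37.1, 32.6 and 29.6 cpm to 90.5 and 99.5 cpm (1.56 ± 0.18, adjusted p = 0.00853, edgeR; 3.26% of all genes rose). This call was lost without either MC903 library or without ethanol replicate 1 (adjusted p of 0.0531 to 0.0845). With aGr1 it rose from 32.9, 27.3, 39.6 and 22.1 cpm to 113.4, 114.6, 101 and 97.4 cpm (1.46 ± 0.10; 15.1%). In BLT1.KO skin it rose from 59.1, 61.5 and 54.2 cpm to 174, 176 and 147 cpm (1.47 ± 0.13; 14.1%), the highest levels of any group. TSLPR.KO skin labelled day 12 showed a rise from 22.2, 31.1 and 22.7 cpm to 49.2, 51.97, 41.4 and 47.3 cpm (0.72 ± 0.14, adjusted p = 0.0121; 5.41%), lost without ethanol replicate 1 (0.0584).

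Osmr did not pass on the earlier days. On day 1 it was at 38.1, 37.4, 30.3 and 42.3 cpm against 41.1, 51.3, 47.5 and 31.4 cpm (-0.24 ± 0.09, adjusted p = 0.118, edgeR). On day 2 91.9 and 67 cpm stood against 46.6 and 39.1 cpm, and on day 5 101, 78.6 and 69.7 cpm against 56.1, 57.1 and 22.9 cpm. MC903 libraries were higher in both, as in 18% and 20.7% of all genes, without a call (adjusted p = 0.385 and 0.0598). On day 2 neither gene passed (0.257% of 23361 genes did), although both had an unadjusted p under 0.05, and DESeq2 called neither. On day 5 neither passed (14.9% of 24226 genes did), both had an unadjusted p under 0.05, and DESeq2 called both. In TSLPR.KO skin of day 8 81.7, 69.2 and 61.2 cpm overlapped 61.4 and 45.7 cpm, and neither gene passed (2.44% of 24292 genes did; Il31ra had an unadjusted p under 0.05, and DESeq2 called neither).

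Il31ra in skin was lower with MC903 where it passed. On day 1 it was at 5.39, 3.09, 2.44 and 6.78 cpm against 10.9, 35.1, 17.5 and 6.65 cpm, and fell by 1.99 log2 units (SE 0.43, adjusted p = 0.0182, edgeR; 7.47% of 24749 genes fell). The groups overlapped by 1 library and the call was lost without MC903 replicate 2 (adjusted p = 0.0569). In BLT1.KO skin it was at 32.5, 24.9 and 24.5 cpm against 64.6, 66.7 and 74.3 cpm, groups apart as in 19.9% of all genes, and fell by 1.37 (SE 0.13, adjusted p = 0.000142; 14.6% of 25771 genes fell). On days 2 and 5, in TSLPR.KO skin of both days and with PBS the log2 fold change was between -1.42 and -0.81 without a call, and with aGr1 it was -0.09.

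**Figure D4:**
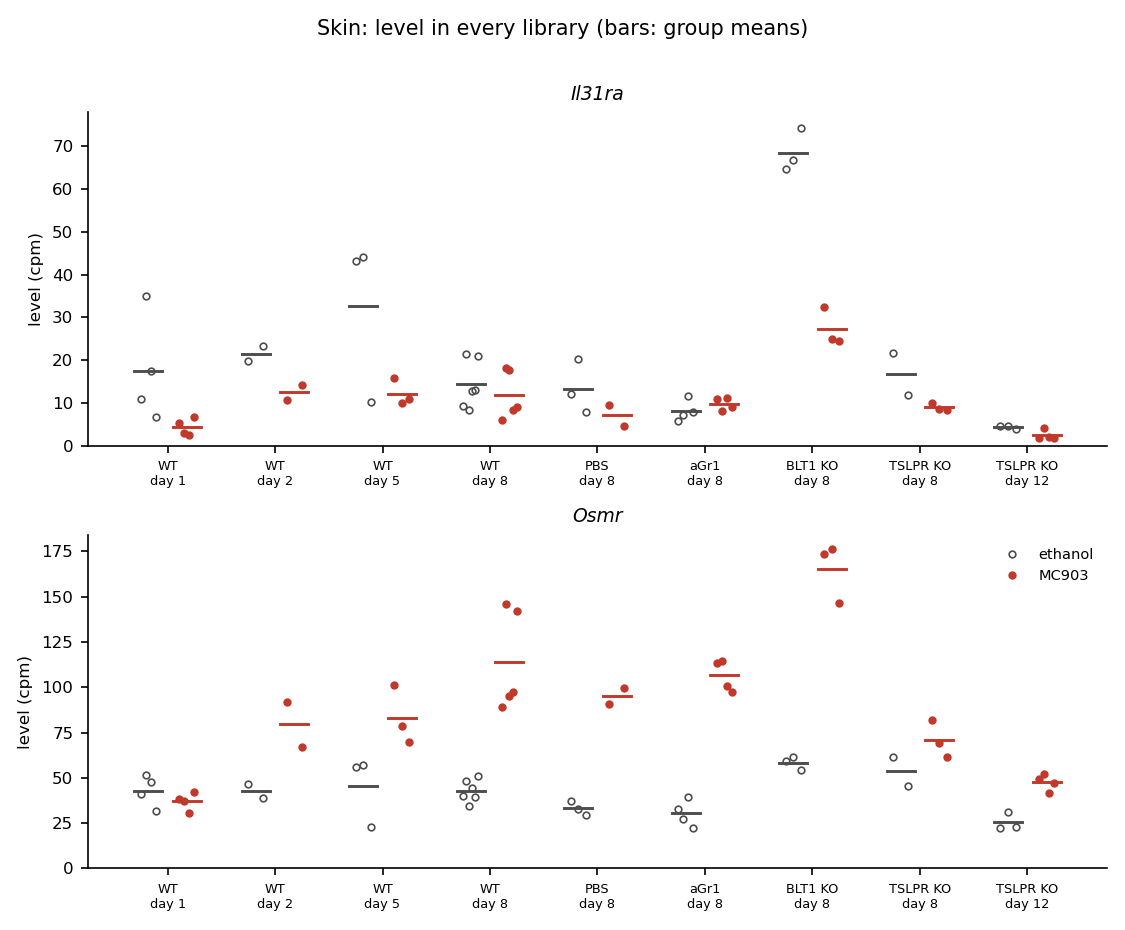
Level of Il31ra and Osmr in every cheek skin library (y axis, cpm; open points ethanol, filled points MC903, bars the group means) by condition (x axis). The mean of Osmr is higher with MC903 in all conditions but wild-type day 1, up to 176 cpm in a library, whereas Il31ra is highest in BLT1.KO ethanol skin at 64.6 to 74.3 cpm.

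The make-up of the skin moved with treatment as well. On day 8 summed keratinocyte markers were 11010 to 22320 cpm with MC903 and 5252 to 6948 cpm with ethanol, and skeletal muscle markers 1518 to 3003 against 2802 to 13200 cpm. On day 1 markers of vessels and stroma were at 3003 to 4821 cpm with MC903 and 4837 to 10470 cpm with ethanol, the groups in which Il31ra fell. In BLT1.KO skin muscle markers were 2621 to 6847 against 16750 to 28970 cpm. Their part in the levels of Osmr and Il31ra was not tested.

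Some ligands and signalling genes of the same receptors rose in skin and others fell. Of 22 pathway genes tested, 8 rose and 2 fell on day 8 without injection (12.2% and 11.2% of all genes). With PBS 7 rose and none fell (3.26% and 0.721%), and with aGr1 7 rose and 6 fell (15.1% and 17.5%). In BLT1.KO skin 9 rose and 5 fell (14.1% and 14.6%), and in TSLPR.KO skin 4 rose and none fell on day 12 (5.41% and 4.62%) and 1 rose and 1 fell on day 8 (1.3% and 1.14%). On day 5 the numbers were 6 and 2 (8.15% and 6.78%), on day 2 none passed, and on day 1 they were 1 and 8 (5.51% and 7.47%). The median log2 fold change of the list ran from -0.305 on day 1 to 0.65 in BLT1.KO skin, against -0.043 to 0.003 over all genes tested, and with aGr1 it was -0.113. Of the genes that rose on day 8, oncostatin M (Osm), a ligand of Osmr, did so by 5.53 log2 units (adjusted p = 9.5e-05, edgeR). Il6, Clcf1, Stat3 and Socs3 rose there by 5.49, 2.06, 1.20 and 2.06. The 2 that fell that day are not named here. Il31 was at or near 0 in skin too.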

How the data were processed

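RNA was extracted from whole ipsilateral trigeminal ganglia and cheek skin, and, per the study's methods and the submitters' processing notes, reads were aligned to mm10 with Bowtie2 and TopHat and counted per gene with HTSeq. The authors deposited 1 table of raw counts per library, with Ensembl identifiers. Strandedness and the annotation release are not given in the sources used here. Of 46078 genes, 45143 identifiers matched a symbol in GENCODE M21. The tally lines of each file were left out, among them reads on no gene, at 6.15 to 21.5% over all 162 libraries.

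Levels are cpm, counts per 1000000 of all counts on genes, as mean ± SD. Each comparison was fitted on its own libraries with edgeR 4.0.16 in R 4.3.3 (TMM, quasi-likelihood F test, genes with at least 10 counts in total, Benjamini-Hochberg over all genes tested), at an adjusted p under 0.1 in ganglion and 0.05 in skin, the thresholds of the study's methods. Uninjected wild-type day 8 had a term for the 2 styles in which its labels are written. SE was the log2 fold change divided by the square root of F, and intervals are 2 SE to each side. Correlations used log2(TMM cpm + 0.5) for genes with a mean of at least 1 cpm. Intervals cover counting and library spread only as the fit estimates them. Differences between effects were tested as interactions in the same way. The fits were also run on simulated counts with the same spread for every gene and changes only in well-counted genes. No result here rests on that run.

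Libraries with the same replicate number deviated together, with r over 0.1 for each number, in ganglia of wild-type day 5 (0.363, 0.287 and 0.157) and of TSLPR.KO day 12 (0.234, 0.628, 0.28 and 0.322). There the pairing comes from these correlations, and paired values are given beside results that they change. No label states a pairing, so a paired call rests on the counts from which the pairing was read. Skin of wild-type day 2 had r = 0.294 and was not treated as paired. With 2 libraries a treatment the value is the same for both numbers by construction. The number of calls with the pairing went from 2 to 54 genes on day 5 and from 79 to 356 in TSLPR.KO day 12. The named genes were the 8 members, the pathway and marker genes listed, and the 5 genes most like Nppb, Il31ra and Sst. The members and lists were chosen with earlier results of these data known. Alternatives were RLE size factors, DESeq2 1.42.0, other filters, a replicate block, 1 fit over all libraries of a tissue, each label style alone, and leaving out each library. Wild-type day 12, 1 skin library of day 2 and spinal cord entered no comparison.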

Additional observations from a re-analysis of the deposited data

Results flagged for a closer look

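In 86 groups of 4 to 10 libraries, 9 held a library far from the others by Dixon's criterion, where chance gives about 1 in 20 groups. In ganglia, with the median of the whole group beside each, these were Il6st in aGr1 ethanol replicate 2 (529.2 against 430.1 cpm), Nppb in day 1 MC903 replicate 1 (5.072 against 2.393 cpm) and Nppb in PBS MC903 replicate 3 (15.38 against 11.03 cpm). Sst stood apart in day 1 ethanol replicate 1 (24.4 against 2.654 cpm), in day 8 MC903 replicate 2 of the first label style (5.784 against 4.402 cpm) and in TSLPR.KO day 12 MC903 replicate 4 (7.88 against 4.237 cpm). Nts did so in aGr1 ethanol replicate 1 (16.72 against 7.92 cpm) and Htr1f, on the low side, in day 1 ethanol replicate 1 (6.595 against 8.816 cpm). In skin, Il31ra did so in TSLPR.KO day 12 MC903 replicate 2 (4.089 against 1.991 cpm).

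Some effects had opposite directions with every library on its side, and these differences were not tested. Sst was higher in all MC903 ganglion libraries on day 2 (log2 fold change 0.72, as in 10.6% of all genes) and lower in all of them with aGr1 (-0.45, as in 4.62%). Il31ra in TSLPR.KO mice of day 8 was higher in all MC903 ganglia (0.87, 2 and 2 libraries, as in 17.4% of all genes). It was lower in all MC903 skin libraries (-0.87, 3 and 2 libraries). The share of all genes for that is not given here. Of 22 pathway genes tested in the same skin libraries, 5 were lower and 6 higher without overlap. None of these effects on Sst and Il31ra passed (for Il31ra adjusted p = 0.601 in ganglion and 0.167 in skin, edgeR).

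In spinal cord, which entered no comparison, 24 values were looked at. By the study's methods this was thoracic cord of mice treated on the back, with a larger volume than on the cheek. Mean Osmr was 10.66 cpm with MC903 and 6.551 with ethanol in PBS mice (n = 2 and 2), and 10.5 against 6.453 cpm in uninjected wild-type mice of day 8 (n = 4 and 5), without overlap in either (higher in 18.8% and 6.86% of all genes). With aGr1 it was 10.3 against 9.806 cpm (n = 8 and 6), and the groups overlapped, with ethanol libraries at 5.905 to 16.17 cpm. Mean Cysltr2 was 0.6418 against 0.3785 cpm in PBS mice (n = 2 and 2), also without overlap, and its groups overlapped with aGr1 and without injection. Besides Il6st, given below, other genes were lower with MC903 without overlap. In PBS mice these were Il31ra (0.5131 against 1.019 cpm), Nppb (0.01546 against 0.2408) and Nts (11.11 against 13.03), as in 17.7% of all genes. In uninjected mice it was Sst (39.26 against 49.72 cpm), as in 8.41%.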

How the results depend on the processing

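Of the 8 genes in ganglia, the number past the threshold on day 5 (0) became 2 with DESeq2 and 1 without a filter, with the replicate block or in 1 fit over all libraries. On day 8 (2) it became 4 without a filter, 1 without the label-style term and 0 in the second style alone. In 1 fit over all libraries it became 2 with PBS (4), 2 in TSLPR.KO day 8 (0) and 1 in TSLPR.KO day 12 (2). Of the 30382 genes of that fit, 31, 1754 and 29 passed in these conditions, in that order. The main fits called 796, 0 and 79. TSLPR.KO day 8 gave 1 with DESeq2, without a filter or with the block. Over all genes these called 185 of 19772, 1063 of 27734 and 480 of 23402, against 0 in the main fit. Leaving out each library in turn gave 0 on day 1, 0 to 1 on day 5 and 1 to 3 on day 8. It gave 4 to 5 with PBS, 3 to 4 with aGr1 and 2 in TSLPR.KO day 12. Over all genes these fits called 246 to 3602 with PBS, 161 to 463 with aGr1 and 31 to 95 in TSLPR.KO day 12. Day 2 and TSLPR.KO day 8 are left out of this count, as such a fit can leave 1 library in a group.

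Of Il31ra and Osmr in skin, day 5 (0) became 1 with RLE or filterByExpr and 2 with DESeq2, without a filter, with the block or in 1 fit. Day 2 (0) became 1 in 1 fit, and TSLPR.KO day 12 (1) became 2 with DESeq2. The block gave 0 on day 1 (1), with PBS (1) and in TSLPR.KO day 12. Leaving out each library gave 0 to 1 on days 1 and 2 and with PBS, and 0 to 2 on day 5 and in TSLPR.KO day 12. The cause of these changes was not tested.

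Outside the ganglion sets treated as paired in the methods, no pairing was read from the replicate numbers. There the block made Nts pass in PBS ganglia (-1.06, adjusted p = 0.0366, edgeR) and moved calls over all genes from 796 to 3479 with PBS and from 0 to 480 in TSLPR.KO day 8. DESeq2 moved them from 41 to 210 on day 8, 456 to 887 with aGr1, 79 to 260 in TSLPR.KO day 12 and 2 to 49 on day 5. Without a filter day 8 gave 493, and without the label-style term 5. The interactions gave none of the 8 genes throughout.

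Directions that turned were all of values without a call. Without the day 1 MC903 libraries low in neuron markers, an alternative chosen after seeing the data, Il31ra was 0.06, Osmr 0.02, Il6st 0.12, Nppb -0.01 and Sst -0.34. Osmr on day 2 was -0.01 with RLE and DESeq2, 0.00 with filterByExpr and -0.10 with the block. On day 5 Sst was 0.00 with the block, and Htr1f 0.03 without the ethanol libraries high in pituitary markers, also chosen after seeing the data. Nts on day 8 was -0.07 in the second label style, and skin Il31ra 0.08 in the first. The block gave -0.16 for Sst and -0.05 for Htr1f in TSLPR.KO day 8.

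Leaving out single libraries turned others, over these ranges. Day 1: Nppb -0.11 to 0.37, Sst -0.22 to 1.64. Day 2: Il31ra -0.19 to 0.11, Osmr -0.15 to 0.17, Nts -1.41 to 0.11, Htr1f -0.74 to 0.02. Day 5: Sst -0.32 to 0.20, Htr1f -0.26 to 0.14. Day 8: Nts -0.08 to 1.04. TSLPR.KO day 8: Il6st -0.13 to 0.08, Sst -1.30 to 0.91, Nts -0.46 to 0.27, Htr1f -0.62 to 0.50. TSLPR.KO day 12: Il6st -0.01 to 0.05, Htr1f -0.15 to 0.03. For aGr1 against PBS: Nts -0.37 to 0.95, Cysltr2 -0.19 to 0.12, Htr1f -0.17 to 0.00. For aGr1 against uninjected: Il31ra -0.12 to 0.02, Cysltr2 -0.43 to 0.09. For TSLPR.KO against wild-type: Osmr -0.30 to 0.04, Sst -1.86 to 0.37, Htr1f -0.91 to 0.21. Skin aGr1: Il31ra -0.23 to 0.03.

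Depth limits Nppb most, with 11 to 249 counts in ethanol ganglia, and 2 libraries a group limit TSLPR.KO day 8.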

Other observations

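In spinal cord, Il6st was lower with MC903 in each of 3 conditions without overlap of the groups: a mean of 181.6 against 232.6 cpm with PBS (n = 2 and 2), 186.2 against 237.3 with aGr1 (n = 8 and 6) and 136.3 against 186.5 in uninjected wild-type mice of day 8 (n = 4 and 5). Nppb was at or near 0 in cord, with group means of 0.01546 to 0.2408 cpm. Groups did not overlap downward in 17.7%, 2.64% and 8.41% of all genes in these 3 conditions, in that order. No test was run there.

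Of the wild-type day 12 libraries, left out above, those labelled skin, MC903 replicates 2, 3 and 4, held Nppb at 11.25, 15.27 and 13.79 cpm and Il31ra at 31.61, 45.76 and 40.69 cpm, beside 15660 to 16600 cpm of sensory neuron markers. The libraries labelled skin, ethanol replicates 3 and 4, were at 3.705 and 4.515 cpm of Nppb, and ethanol replicate 1 at 12.97. Of those labelled ganglion, ethanol replicates 3 and 4 had 17850 and 16920 cpm of neuron markers, and ethanol replicate 2 had 8051 cpm of these and 3005 cpm of keratinocyte markers. No library was moved to another group.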
